A study of Mus musculus with 2 samples.

Results

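The genes described here are 48 listed mouse genes of the cell division cycle, out of 21531 protein-coding genes that could be scored. They were listed by name, with earlier results of these data known, and no threshold on binding was used. Each was scored by the strongest CHD2 peak whose summit, the deposited position of highest signal in a peak, lay within 1 kb of its 5′ end. The 5′ end is the outer end of the gene in the RefSeq annotation. The list was divided by the phase in which each product is best known to act. It held 18 genes of G1 and the entry into S phase (G1/S) and 30 genes of G2 and mitosis (G2/M). For 5 of the 48 genes the phase was marked as less certain.

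Cyclins and their kinases drive a cell through division, and their activity is set by phosphatases, inhibitors and timed proteolysis. G1/S genes are classically switched on by E2F factors once RB is phosphorylated. Genes of G2 and mitosis are typically expressed later, from promoters that often carry CCAAT boxes, the binding site of the trimeric factor NF-Y, and a cell cycle genes homology region (CHR), which is bound by complexes containing the MuvB core. Mouse embryonic stem cells divide fast and have a short G1 phase. CHD2 is a chromodomain helicase that remodels nucleosomes.

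CHD2 was immunoprecipitated from ES-E14 cells and the bound DNA was sequenced (ChIP-seq). This line of mouse embryonic stem cells comes from a male embryo of strain 129/Ola. There was 1 group of 2 samples with no treatment and no altered genotype. The labels number them as biological replicates 1 and 2 but give both the same biosample record, so the spread between them may be technical. The control was not analysed here, and the read depth behind each list is unknown. The files hold no expression values, so neither the identity of the cells nor their phase was checked. The optimal list, derived from both replicates, held 8282 peaks with signals from 5.74 to 463 and a median of 29.6. The 8282 strongest peaks of each replicate's own list of 300000 were used beside it, and the weakest of these had a signal of 11.1 in replicate 1 and 11.6 in replicate 2. The signal of a peak was set by the authors' caller, its normalization is not stated, and it was compared only within a list.

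CHD2 peaks were found at the starts of 20 of the 48 genes (41.7%, exact 95% interval 27.6 to 56.8), against 14.1% of all protein-coding genes. They lay mostly at genes of mitosis. Of the G2/M genes, 17 of 30 had a peak (56.7%, interval 37.4 to 74.5), and of the G1/S genes 3 of 18 did (16.7%, interval 3.58 to 41.4). The strongest were at Top2a, which encodes topoisomerase II alpha and untangles sister chromatids, with a signal of 279, at Cdc45, a subunit of the replicative helicase, with 199, and at Cdc20, which activates the anaphase-promoting complex (APC/C), with 197. None of the D-type or E-type cyclins, nor the kinases Cdk2, Cdk4, Cdk6 and Cdk1, had a peak in the optimal list. All intervals cover counting error over genes only, and genes are not replicates of the cells.

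The promoters below show the sequence that most clearly separated the genes with a peak from those without. They are Top2a and Cdc20, the strongest G2/M genes, and E2f3 and Cdc25a of the G1/S genes with a peak. Bub1, Cdk1, Bub1b and Cdk4 were added after their values were seen, Bub1 as a G2/M gene of middle rank, Cdk1 and Bub1b as the exceptions and Cdk4 as a G1/S gene with no CHD2 peak. Each run is promoter sequence that ends just before the gene in the RefSeq annotation and reads 5′ to 3′ on the gene's strand, from the RefSeq promoter table of GRCm38.p6. The positions, in mm10 coordinates, are chr11:99024200-99024389 (minus strand) for Top2a, chr4:118437344-118437543 (minus) for Cdc20, chr13:29986065-29986263 (minus) for E2f3, chr9:109875379-109875517 (plus) for Cdc25a, chr2:127831860-127832059 (minus) for Bub1, chr10:69352913-69353112 (minus) for Cdk1, chr2:118598011-118598201 (plus) for Bub1b and chr10:127063335-127063534 (plus) for Cdk4. Capitals mark each match, on either strand, to the 10 motifs that were searched.
Top2a: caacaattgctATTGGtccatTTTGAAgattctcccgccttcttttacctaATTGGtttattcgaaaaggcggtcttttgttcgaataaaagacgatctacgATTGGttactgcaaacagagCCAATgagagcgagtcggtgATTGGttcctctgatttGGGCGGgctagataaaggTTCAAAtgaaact
Cdc20: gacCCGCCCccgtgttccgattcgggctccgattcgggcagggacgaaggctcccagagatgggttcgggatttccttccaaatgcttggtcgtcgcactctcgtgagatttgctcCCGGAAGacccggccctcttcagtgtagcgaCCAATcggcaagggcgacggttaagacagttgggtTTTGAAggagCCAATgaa
E2f3: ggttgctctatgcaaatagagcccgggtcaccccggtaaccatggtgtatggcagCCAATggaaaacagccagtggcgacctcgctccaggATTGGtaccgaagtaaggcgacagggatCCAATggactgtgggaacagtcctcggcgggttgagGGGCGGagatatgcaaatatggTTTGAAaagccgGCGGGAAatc
Cdc25a: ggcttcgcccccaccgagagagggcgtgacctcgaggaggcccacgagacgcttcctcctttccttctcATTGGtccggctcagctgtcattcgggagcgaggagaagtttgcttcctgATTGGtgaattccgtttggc
Bub1: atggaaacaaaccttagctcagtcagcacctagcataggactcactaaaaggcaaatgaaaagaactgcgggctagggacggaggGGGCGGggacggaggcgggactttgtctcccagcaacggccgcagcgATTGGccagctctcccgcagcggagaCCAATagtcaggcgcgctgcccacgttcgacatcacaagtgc
Cdk1: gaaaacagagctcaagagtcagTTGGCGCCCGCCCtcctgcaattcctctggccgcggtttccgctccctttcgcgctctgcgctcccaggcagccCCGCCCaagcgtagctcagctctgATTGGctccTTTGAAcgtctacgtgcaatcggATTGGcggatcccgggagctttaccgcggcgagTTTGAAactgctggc
Bub1b: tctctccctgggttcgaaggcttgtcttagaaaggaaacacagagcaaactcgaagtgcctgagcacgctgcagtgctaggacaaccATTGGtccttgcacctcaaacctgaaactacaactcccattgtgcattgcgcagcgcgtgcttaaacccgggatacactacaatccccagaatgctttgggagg
Cdk4: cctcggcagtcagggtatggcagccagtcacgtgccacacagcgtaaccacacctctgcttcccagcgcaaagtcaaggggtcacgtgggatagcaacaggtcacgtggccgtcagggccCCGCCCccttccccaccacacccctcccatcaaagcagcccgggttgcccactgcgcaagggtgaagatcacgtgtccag
CCAAT boxes, read as ATTGG where they lie on the other strand, recur in the runs of Top2a, Cdc20, E2f3, Cdc25a, Bub1 and Cdk1. The Bub1b run holds 1, and the Cdk4 run holds a GGGCGG match and no CCAAT.

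The same division between phases was seen in each replicate's own list. In replicate 1, 20 of the 48 genes had a peak (41.7%) against 14.5% of all genes, and 17 of these were G2/M and 3 G1/S genes. In replicate 2, 22 of the 48 did (45.8%) against 14.2% of all genes, of which 17 were G2/M and 5 G1/S genes. In both lists at once, 17 genes had a peak (35.4%) against 10.5% of all genes. These were 15 of the 30 G2/M genes and 2 of the 18 G1/S genes. With the start sites of the promoter table, for the 36 genes it holds, 4 of 12 G1/S genes (33.3%) and 13 of 24 G2/M genes (54.2%) had an optimal peak, against 15.8% of all genes. The interval of the G1/S share in the optimal list holds the share of all genes, and that of the G2/M share lies above it. In the mm9 list, which comes from the same 2 samples, 12 G2/M genes (40.0%) and 3 G1/S genes (16.7%) had a peak. The share of all genes there was 9.98%.

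**Figure D1:**
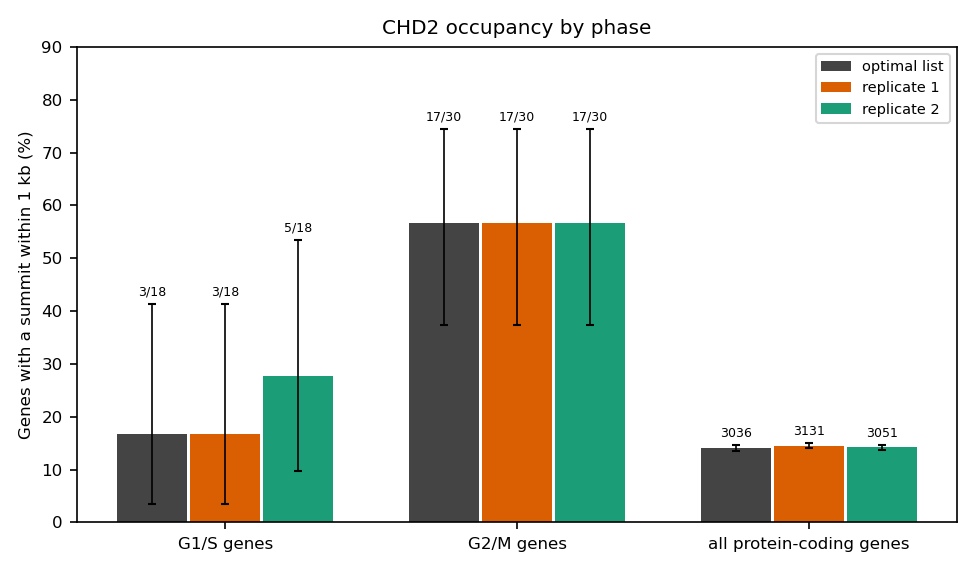
Share of G1/S, G2/M and all protein-coding genes with a CHD2 summit within 1 kb of the 5′ end, in percent, for the optimal list and the 8282 strongest peaks of each replicate. Lines are exact 95% intervals and the numbers are genes with a peak; the G2/M bars stand at 56.7% in each list and the G1/S bars at 16.7% to 27.8%.

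Among genes with a peak, the 2 phases overlapped in signal. The median optimal signal was 46.2 over the 17 G2/M genes and 35.7 over the 3 G1/S genes, a ratio of 1.29, beside a median of 45.0 over all genes with a promoter peak. Of the 20 genes, 10 lay above that median of all genes and 10 below. With only 3 G1/S genes the ratio turns with the list: it was 0.388 in the conservative list, where Cdc25a drops out, and 0.532 among the 4141 strongest optimal peaks.

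Origin licensing and firing gave 1 strong peak and 3 genes without one in the optimal list. At Cdc45 the signal was 121 in replicate 1 and 79.3 in replicate 2, and the optimal peak (chr16:18812157-18812410, mm10) ranked 263 of 8282. Its summit lay 314 bp upstream in both the optimal list and replicate 1, farther out than any other upstream summit of the list among optimal peaks. That position is also 550 bp inside Ufd1, which starts on the opposite strand and overlaps the Cdc45 start, so the peak cannot be assigned to either gene. Geminin (Gmnn), the inhibitor of licensing, had a peak in replicate 2 alone, with a signal of 11.9, just above the weakest used there. Cdc6 and Cdt1, which load the helicase onto origins, stayed below that level in both replicates, with 10.3 and 8.19 for Cdc6 and 6.23 and 5.71 for Cdt1.

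Of the E2F and RB genes, 1 of 5 had a peak in the optimal list (20.0%, interval 0.505 to 71.6), beside 14.1% of all genes. The gene was E2f3. Its signal was 24.4 in replicate 2 but 9.60 in replicate 1, where it ranked 11925 and so fell outside the strongest peaks. The optimal peak (chr13:29985930-29986289) had a signal of 35.7 and its summit 46 bp upstream. E2f1, an activator, had a peak in replicate 1 alone, with a signal of 12.6 and a summit 945 bp inside the gene, while replicate 2 had 9.67 in the same window. The repressor E2f4 and Rb1 itself had at most 5.35 in either replicate. E2f2 had no peak at its outer 5′ end, but an optimal peak with a signal of 35.6 lay 8340 bp inside the gene, 168 bp upstream of a second start site that the promoter table lists.

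The D-type cyclins, which couple growth signals to Cdk4 and Cdk6, had their optimal peaks outside the 1 kb window. The nearest summit lay 1189 bp upstream of Ccnd3 with a signal of 22.9, 1904 bp upstream of Ccnd1 with 17.9, and 3185 bp upstream of Ccnd2 with 28.1. Ccnd2 also had a peak 387 bp upstream in replicate 2 alone, with a signal of 14.7 there and 8.22 in replicate 1. Ccnd3 was the only one of the 48 genes with no peak within 1 kb in either full list of 300000. For Ccne1, an E-type cyclin that activates Cdk2, the nearest optimal summit was 4689 bp upstream, with a signal of 38.2. Cdc25a, the phosphatase that activates Cdk2, was the third G1/S gene with a peak, at 17.1 in replicate 1, 11.7 in replicate 2 and 28.6 in the optimal list (chr9:109875297-109875656). Its summits differed most between the replicates, at 194 bp and 14 bp upstream.

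At the heart of the G2/M switch, cyclin B genes carried CHD2 and their kinase did not. Ccnb1 had a signal of 63.0 in replicate 1 and 25.3 in replicate 2, with an optimal peak of 87.6 (chr13:100786434-100786793). Ccnb2 had 23.3 and 16.5, and the optimal peak 36.2. Both genes were above the weakest peak used in each replicate. Ccnf, which encodes an F-box protein of the cyclin family, had 12.0 in replicate 1 and 27.3 in replicate 2, the largest difference in rank (3.84-fold) among the genes with a peak in both. Cdk1, the catalytic partner of the B-type cyclins, had 5.34 and 5.33 at its start and ranked 95959 and 57691. The Cdk1 gene did hold an optimal peak with a signal of 106, but at the far side of the gene, 16493 bp from the 5′ end and 1273 bp from the 3′ end. Ccna2 stayed at 8.13 and 7.73.

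Of the enzymes that set Cdk1 activity, Cdc25c, an activating phosphatase, had 60.9 in replicate 1, 37.2 in replicate 2 and 97.2 in the optimal list, at rank 820. Its relative Cdc25b had 4.71 and 4.11 and no optimal peak. Wee1, the inhibitory kinase, lay at the limit. It had 9.73 in replicate 1 and 12.3 in replicate 2, was absent from the optimal list, and had a peak with a signal of 23.0 in the conservative list.

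The Aurora kinases had peaks and the Polo-like kinases did not. Aurka, the spindle pole kinase, had 27.9 in replicate 1, 17.8 in replicate 2 and 48.1 in the optimal list, with the summit 287 bp inside the outer end of the gene and 29 bp upstream of the start site in the promoter table. That summit lay 46 bp from the 5′ end of Cstf1, a cleavage stimulation factor gene that starts on the opposite strand, so the peak cannot be assigned to either gene. Aurkb, the kinase of the chromosomal passenger complex, had 17.8 and 18.1 in the replicates and 35.4 in the optimal list. Plk1, which acts in mitotic entry and spindle assembly, had 10.4 in replicate 1, at rank 9733, and 5.54 in replicate 2. Plk4, the kinase of centriole duplication, had 4.48 and 7.74.

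The spindle checkpoint, which holds anaphase until chromosomes are attached, had an optimal peak at 4 of 5 genes, with signals from 24.2 to 46.2. The interval of that share was 28.4 to 99.5%, and 14.1% of all genes had a peak. In both replicates' strongest peaks 2 of the 5 had one (interval 5.27 to 85.3%), against 10.5% of all genes. In the mm9 list 1 did (interval 0.505 to 71.6%), against 9.98%. Both of these intervals hold the share of all genes. Bub1 had 18.1 in replicate 1, 24.6 in replicate 2 and 46.2 in the optimal list (chr2:127831752-127832111). Ttk, the checkpoint's upstream kinase, had 17.5, 12.0 and 28.7. Bub1b and Bub3 were near the limit: both had 24.2 in the optimal list and were among the strongest peaks of replicate 1 (12.1 and 11.8), whereas in replicate 2 they ranked 9559 and 8886. Mad2l1, the fifth, had 4.88 and 4.00.

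The APC/C destroys cyclin B and securin at anaphase. Its activator Cdc20 had 126 in replicate 1 and 73.5 in replicate 2, and the optimal peak (chr4:118437301-118437543) ranked 270, with the summit 90 bp upstream. Together, Cdc20 and the 4 listed subunits had an optimal peak at 2 of 5 genes (40.0%, interval 5.27 to 85.3), beside 14.1% of all genes. Of the subunits only Anapc5 had a peak, with 41.8, 19.3 and 62.5. Its summit was the farthest that still counted, 960 bp inside the outer 5′ end, but lay 37 bp upstream of the start site in the promoter table. Anapc1, Anapc2 and Anapc4 had at most 8.08 in either replicate.

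At the centromere, Cenpa, the histone H3 variant that marks it, had 46.4 in replicate 1 and 48.2 in replicate 2, and an optimal peak of 95 (chr5:30666741-30666894). Incenp, the scaffold of the chromosomal passenger complex, had 34.6, 49.9 and 87.1. Cenpf had 16.2, 29.2 and 44.8, so all 3 genes were above the weakest peak used in each replicate. The motor Cenpe just missed the replicate 1 list, at rank 10617, and Birc5 (survivin), another passenger subunit, had a peak of 5.49 in replicate 2's full list and none in that of replicate 1.

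Top2a had the strongest signal of the list in both replicates, 141 and 136, and its optimal peak (chr11:99024168-99024514) ranked 112 of 8282. The replicates placed its summit 119 and 117 bp upstream. Kif20a, a kinesin of cytokinesis, had the weakest optimal peak of the list, 23.8, with 12.0 and 13.8 in the replicates. That summit lay 48 bp from the 5′ end of Brd8, which starts on the other strand. Kif11, the kinesin that separates spindle poles, had a peak in replicate 2 alone, with 14.2 there and 6.89 in replicate 1.

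**Figure D2:**
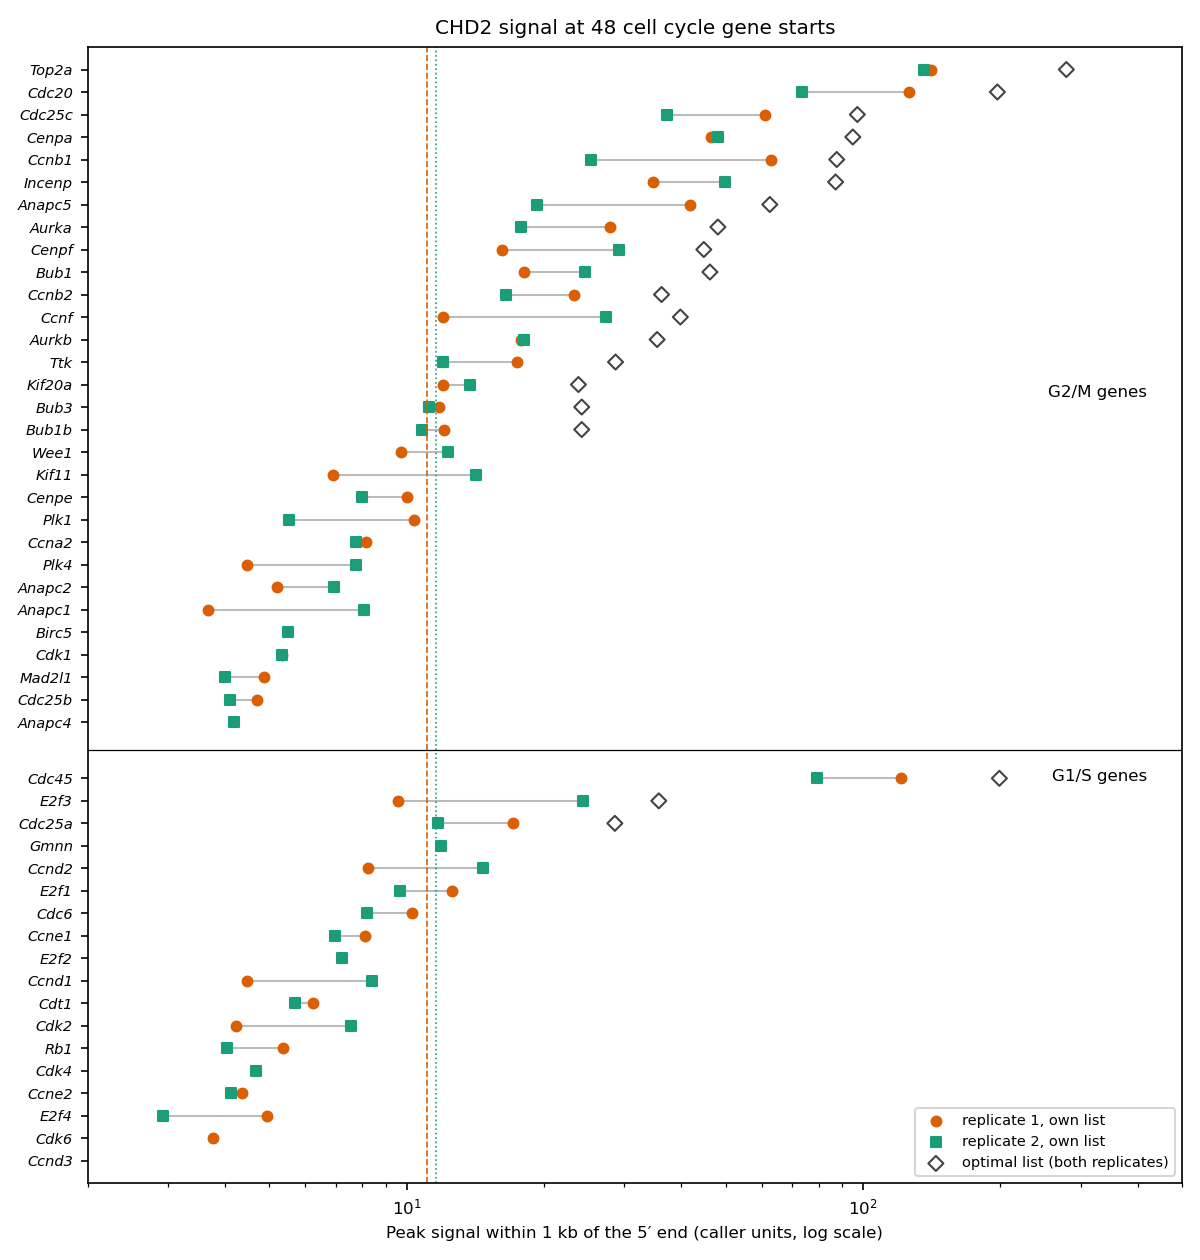
Strongest CHD2 signal within 1 kb of the 5′ end of each of the 48 genes on a log axis, in the full list of replicate 1 (circles) and replicate 2 (squares) and in the optimal list (diamonds), with grey lines joining the replicates. The dashed and dotted lines mark the weakest of the 8282 strongest peaks of replicate 1 (11.1) and replicate 2 (11.6); Top2a, Cdc45 and Cdc20 stand highest, and Ccnd3 has no point.

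By rank in the optimal list, Top2a, Cdc45, Cdc20 and Cdc25c were followed by Cenpa (857), Ccnb1 (953), Incenp (966) and Anapc5 (1473). Aurka (2082), Bub1 (2197), Cenpf (2290), Ccnf (2705), Ccnb2 (3092), E2f3 (3149) and Aurkb (3194) lay in the stronger 4141 of the 8282 peaks. Ttk (4333), Cdc25a (4355), Bub1b (5455), Bub3 (5463) and Kif20a (5570) lay below. For 18 of the 20 peaks the listed gene had the nearest protein-coding 5′ end to the summit, the exceptions being Aurka and Kif20a.

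Of the 48 genes, 28 had no optimal peak. Of these, 5 had a peak in 1 replicate only (E2f1, Ccnd2, Gmnn, Wee1 and Kif11) and 23 in neither, 12 of them G1/S and 11 G2/M genes. Weaker peaks were listed at most of the 23: 17 had a peak somewhere in both full lists, 5 in 1 of them, and Ccnd3 in none. The best ranked were Plk1, Cdc6 (rank 9877 in replicate 1) and Cenpe. Besides Ccnd3, the lowest were Cdk6, listed in replicate 1 alone at rank 281437, and Mad2l1, whose better rank was 131253. The promoter table places the Cdk6 start site 2889 bp inside the outer end, so the window did not cover it. Ccne2, Cdk2 and Cdk4 had at most 7.55 in either replicate.

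Summit positions recurred closely between the replicates. For the 17 genes found in both replicates' strongest peaks, the summits of the 2 replicates lay a median of 18.0 bp apart (range 2 to 180), and 14 of the 17 lay within 50 bp. The exceptions were Ccnb2 at 87 bp, Kif20a at 115 bp and Cdc25a at 180 bp. In the optimal list, 16 of the 20 summits lay upstream of the outer 5′ end, beside 65.3% over all genes with a promoter peak. Of the 20, 17 lay within 250 bp of the 5′ end (85.0%), compared with 74.0% of all genes with a promoter peak. The median distance was 81.5 bp, against 104 bp for all such genes. Of the 16 upstream summits, 13 were at G2/M genes, among them all 10 that lay between -128 bp (Ccnb1) and -52 bp (Cenpf). The G1/S summits of E2f3 and Cdc25a lay just outside that range, at -46 and -41 bp. From its start site in the promoter table, the Cdc25a summit lay at -102 bp. The 4 summits inside the gene were those of Anapc5, Aurka, Kif20a and Ttk. Measured from the start sites of the promoter table, which held 16 of the 20, all 16 summits were upstream, beside 79.8% of 2571 such genes. The median position was -73.0 bp, and -77.0 bp over those genes.

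What the listed genes with a peak shared in sequence was the CCAAT box. Promoter sequence, 250 bases before to 50 after the start site, was available for 36 of the 48 genes in the RefSeq table. The box, searched as CCAAT on both strands, was present in 16 of 16 promoters with a CHD2 peak and in 7 of 20 without (35.0%). Over all 17492 protein-coding promoters the share was 39.2%, with 56.6% where CHD2 had a peak and 36.2% where it had none. The division held within phases, at 13 of 13 against 5 of 11 for G2/M genes and 3 of 3 against 2 of 9 for G1/S genes. In the mm9 genome, where all 48 promoters could be read, the box was present in 19 of 20 with a peak and 11 of 28 without, beside 38.0% of all promoters. A match is a run of letters and not a measured NF-Y site.

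The summits lay close to these boxes. For the 15 genes with a summit inside the window, the nearest box was centred a median of 9.0 bp from the summit, with a range of 1 bp at Ttk to 99 bp at Bub1b. In 14 of the 15 it was within 50 bp (93.3%), against 81.1% of the 1099 genes of all kinds that could be measured this way, whose median was 15.0 bp. The 2 sets were not matched for the number of boxes. Of the 15 only Bub1b had just 1, whereas any gene with at least 1 entered the 1099. More boxes bring the nearest one closer by themselves, so the comparison cannot show that summits of listed genes lie closer. The peak of Top2a, the strongest, lay among 6 boxes, of which 5 are in the run printed above. Cdc45 differed: its 2 boxes lie at the start site while its summit is 314 bp away, and the 101 bases around its mm9 summit held an ETS core and no CCAAT. In the mm9 list, 14 of 15 listed genes had a CCAAT within 50 bp of the summit, Cdc45 being the exception, against 49.1% of 2220 genes.

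**Figure D3:**
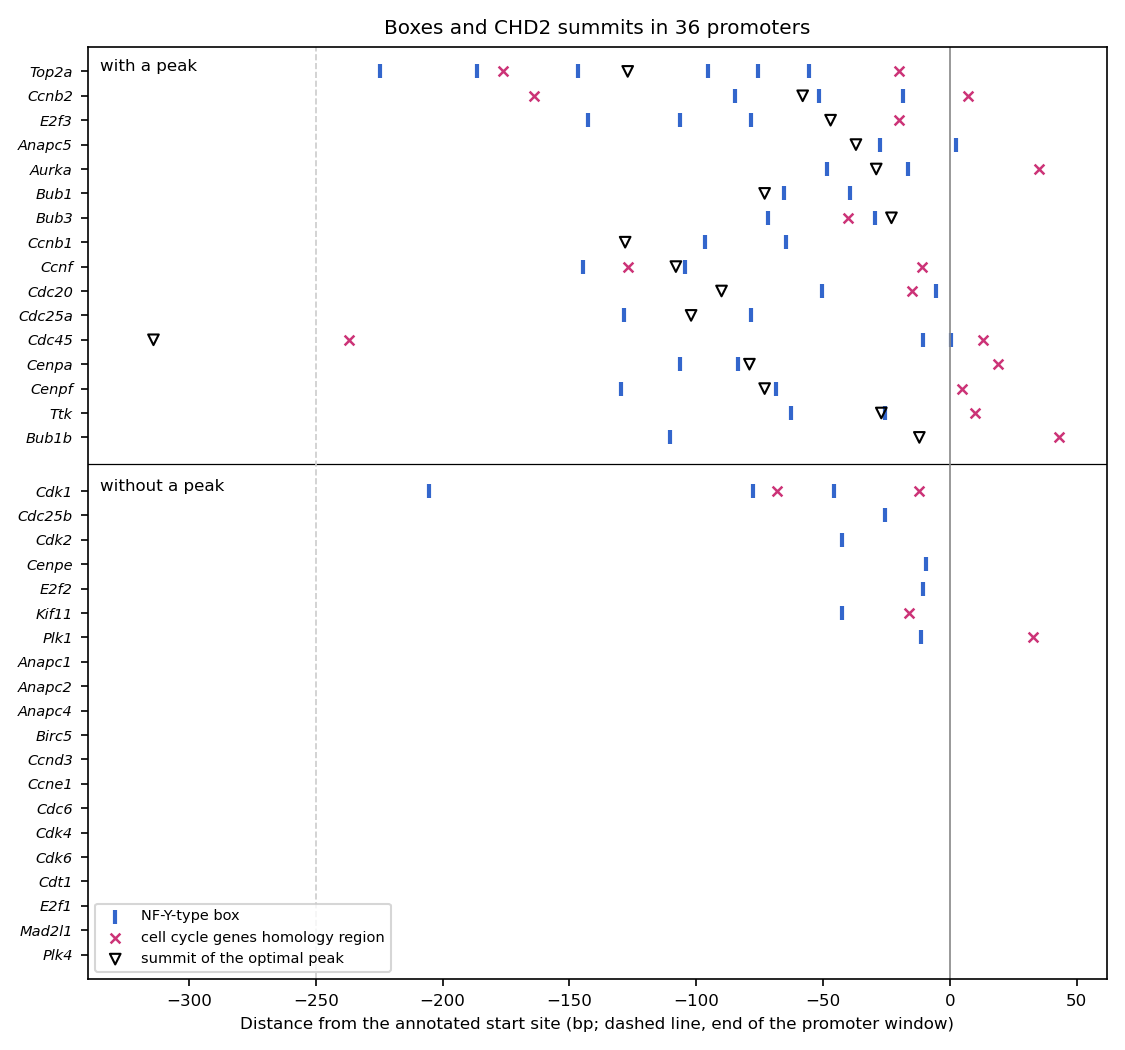
Positions in bp from the annotated start site of NF-Y-type (CCAAT) boxes, cell cycle genes homology regions and optimal CHD2 summits in the promoters of 36 genes, 16 with and 20 without a peak. Boxes fill the upper rows and 13 of the lower rows hold none; the summit of Cdc45 lies outside the promoter window.

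The number of boxes separated the genes further. Of the promoters with 2 or more CCAAT matches, 15 of 16 had a CHD2 peak, and of those with none or 1 only Bub1b of 20 did. The exception with boxes and no peak was Cdk1, whose 3 boxes and 2 CHR matches are in large part visible in the run above. Bub1b, with 1 box 113 bp before its start, was among the weakest peaks. Over all protein-coding genes the share with a peak rose from 10.5% of promoters with no box to 12.8% with 1, 28.4% with 2 and 56.9% with 3 or more. Among 94 other cell cycle genes the shares were 31.7%, 39.3%, 53.3% and 6 of 10. Listed genes without a box thus had no peak in 13 of 13 promoters, whereas 13 of 41 other cell cycle genes without a box had a peak.

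**Figure D4:**
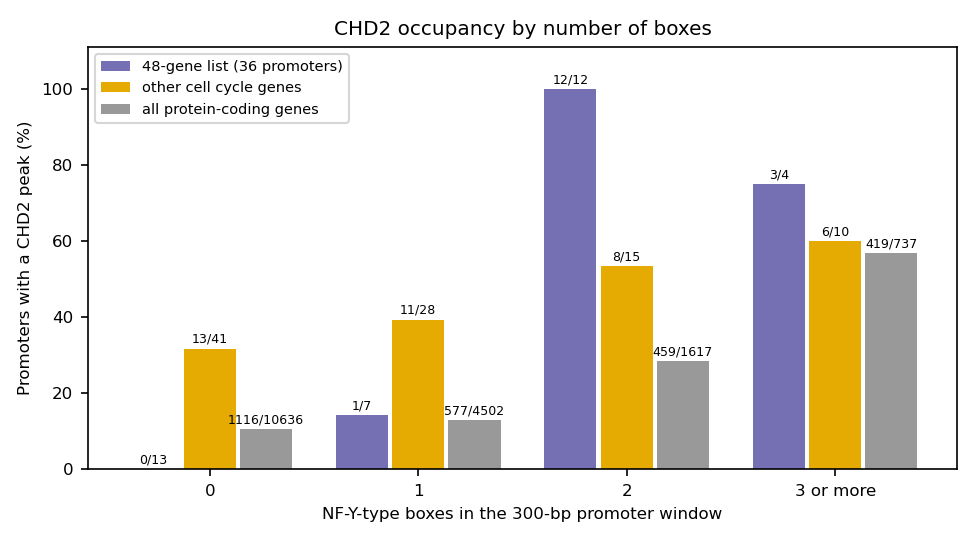
Percent of promoters with an optimal CHD2 peak by the number of NF-Y-type (CCAAT) boxes in the 300-bp window, for the listed genes, other cell cycle genes and all protein-coding genes, with counts above the bars. In each set the promoters with 2 or more boxes stand above those with none or 1.

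The CHR, searched as TTTGAA on both strands, was more frequent in G2/M promoters and in promoters with a peak. It was present in 13 of 24 G2/M promoters (54.2%) and 2 of 12 G1/S promoters (16.7%), beside 16.5% of all promoters. Listed genes with a peak held it in 12 of 16 cases (75.0%) and those without in 3 of 20 (15.0%), the latter being Cdk1, Plk1 and Kif11. Over all genes the match was no more frequent where CHD2 had a peak (13.2%) than where it had none (17.1%). Nor did the other cell cycle genes show the difference, with 15 of 38 promoters with a peak and 25 of 56 without. Around the mm9 summits 3 of 15 listed genes held it (20.0%), namely Top2a, Ccnf and E2f3, against 4.82% of all genes.

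E2F sites were found in more of the G1/S than of the G2/M promoters. The form TTCCCGC was found in 4 of 12 G1/S and 1 of 24 G2/M promoters (6.01% of all promoters), and TTGGCGC in 4 of 12 and 2 of 24 (3.22% of all). By peak, the first form was in 1 of 16 promoters with a peak and 4 of 20 without, and the second in 3 of 16 and 3 of 20. The Sp and KLF core GGGCGG was equally common in both, at 75.0% (46.3% of all promoters). The ETS core CCGGAAG was in 3 of 16 and 3 of 20 promoters (11.9% of all). The palindrome CTCGCGAG was in 6.65% of all promoters with a CHD2 peak against 1.31% of all promoters. Among the listed promoters it was in 1 of 16 with a peak (6.25%) and in none of the 20 without. The NRF1 core GCATGCGC (3.61% of all), the YY1 core AAGATGGC (3.21%) and the CRE TGACGTCA (2.33%) were in none of the 16 with a peak. They were in 2, 1 and 1 of the 20 without. Over all promoters with a peak their shares were 4.82%, 6.03% and 4.01%, so 16 promoters are too few to show a difference. In the Cdk1 run TTGGCGC and GGGCGG, there read as CCGCCC, lie side by side without sharing bases, and each was counted.

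CpG density was similar in listed genes with and without a peak. Over 500 bp on each side of the mm9 start, listed genes with a peak had a median of 60 CpG and those without 65.0, with the same observed-to-expected ratio of 0.793. Over all genes the medians were 64.0 with a peak and 37.0 without. G1/S genes had more CpG than G2/M genes, at medians of 77.0 and 63.0. Ccne1, with 127 CpG and no peak, and Top2a, with 55 and the strongest peak, show the 2 measures apart.

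The rest of the division machinery was read from 109 further genes in 7 lists. A peak was present at 44 of them (40.4%, interval 31.1 to 50.2), close to the 41.7% of the 48 genes. The share of all protein-coding genes was 14.1%. The single lists are small and their intervals wide, such as 8.52 to 75.5% for the CDK inhibitors. Kinetochore and centromere proteins had 13 of 29, led by Zwilch with 380, a subunit of the complex that recruits dynein to kinetochores, and Spc25 with 217, a subunit of the microtubule-binding NDC80 complex. Cohesin and condensin had 8 of 19, the strongest being the condensin subunits Ncapg with 149 and Ncapg2 with 116. These peaks were unevenly divided. Among the cohesin genes and their regulators only Smc1a had one (50.1), and among the condensin genes only Smc2 had none. Other APC/C subunits and regulators had 6 of 12, with Cdc26 at 175 and Cdc23 at 74.9. Kinesins and spindle proteins had 7 of 16 (Ckap5 82.4, Kif2c 53.8), cyclin and kinase regulators 5 of 10 (Chek2 71.3, Cks2 44.1) and CDK inhibitors 3 of 8 (Cdkn2d 40.9, Cdkn2a 38.1). The RB, DREAM and MuvB genes, which encode regulators of both phases, had 2 of 15 in the optimal list. That share (13.3%, interval 1.66 to 40.5) was near that of all genes. In replicate 1 they had 4 of 15, against 14.5% of all genes, and in replicate 2 they had 3 of 15, against 14.2%. The 2 in the optimal list were Lin37 at 28.1 and Lin52 at 71.6. The summit at Lin52 lay nearer to Aldh6a1 (97 bp) than to Lin52 (387 bp upstream).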

How the data were processed

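Only peak lists of 2 ChIP-seq samples in 1 group were analysed. The authors made the optimal and conservative lists, per the deposited descriptions, by an irreproducible discovery rate threshold on relaxed mm10 lists of each replicate and of both pooled. A further list was called on mm9. Aligner, peak caller and their settings, not given in the sources used here, can move all values. The deposited signal of a peak comes from that caller, without stated normalization. The deposited −log10 q-value was not used. The deposited summit offset, in bp from the start of the peak, gave each summit.

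For mm10, genes were those of RefSeq on GRCm38.p6, and for mm9 those of GENCODE M1 on NCBIM37. Strand came from the RefSeq promoter table or, for 4039 genes, from GENCODE M1, which gave 21531 of 21900 genes (98.3%). The 5′ end is the gene's outer end, so internal starts are missed. A gene had a peak if a summit lay within 1 kb (1000 bp) of it. Intervals are exact Clopper-Pearson, at 95%. No test was made, since genes are not replicates. Motifs were matched exactly, and overlapping matches each counted. The scoring was tested on simulated data. The 48 genes, their phases, the further lists and the motifs were chosen with earlier results of these data known. By the rule for named genes, all listed genes are accounted for, and up to 2 of each further list are named by signal. Smc1a and Smc2 were named besides, after their values were seen. The rule for sequences, the 3 strongest genes of each phase, also gives Cdc45 and Cdc25c, which are not printed here. Python 3.11.15, pandas 2.3.3, numpy 2.4.6, scipy 1.17.1 and matplotlib 3.10.9 were used.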

Additional observations from a re-analysis of the deposited data

How the results depend on the processing

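The G2/M share stayed above the G1/S share, by 40.0 points in the values reported, under every alternative run. The difference was 28.9 points with a window of 2.5 kb, where Ccnd1 and Ccnd3 raised the G1/S count to 5, 48.9 with the conservative list and 23.3 with the mm9 list. From single replicates it ranged from 28.9 to 40.0, with G1/S counts of 3 to 5. Without the 5 genes of less certain phase it was 43.9, at 61.5% of 26 G2/M and 17.6% of 17 G1/S genes. In alternatives chosen after seeing the data, it was 20.8 with the start sites of the promoter table, where 4 of 12 G1/S genes had a peak (33.3%, against 15.8% of all genes, E2f2 added), and 29.2 with the outer ends of those genes (3 of 12). The ratio of median signals, 1.29, was 1.62 with 2.5 kb and 2.22 with the mm9 list, ranged from 1.37 to 1.67 in single replicates, and reversed to 0.388 with the conservative list and 0.532 with the 4141 strongest optimal peaks. These last ratios rest on 2 G1/S genes each. With 2070 peaks per replicate, 7 genes in place of 17 had a peak in both (5.31% of all genes in place of 10.5%), and with 16564 peaks 22 did (14.3% of all). The median summit distance, 81.5 bp, was 92.5 to 109 bp in single replicates. No paired analysis was possible because there is 1 group. Read depth is unknown, and 2 replicates do not allow a test of outlying samples.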
